A study of Drosophila melanogaster with 3 samples.

Results

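The genes described here belong to families of secreted, mostly digestive enzymes of Drosophila melanogaster. Binding of the transcription factor fkh (forkhead) near their starts was read from ChIP-seq peak lists. The members are the protein-coding genes whose symbol starts with Jon and a digit, with Mal-A, or with Lys and 1 capital letter, or ends in Try. Other digestive genes fall outside this rule. The rule found 41 of 13945 protein-coding genes: 16 Jonah proteases, 11 trypsins, 8 maltases and 6 lysozymes. LysC, which the annotation lists as a pseudogene, was not counted. The series holds 1 group of 3 biological replicates and no second group. Each replicate was chromatin of whole prepupae, males and females pooled, from a transgenic fly line that stably makes fkh with GFP at its C terminus (fkh-GFP), sheared by sonication and precipitated with an antibody to GFP. The label adds an insertion that targets fkh, whose extent is not given in the sources used here, and the origin of the shared control is not given either. The lists carry no read counts, so the depth behind each value is unknown.

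Jonah proteases and trypsins are serine proteases that cut dietary protein in the midgut, and trypsins cut after lysine or arginine. Maltases are alpha-glucosidases that split maltose and other short sugars, and lysozymes break the cell walls of bacteria, which flies eat in quantity. At the prepupal stage the larva has stopped feeding and its midgut is being replaced. fkh is the protein after which the forkhead (Fox) family is named, and it is needed to form the fore- and hindgut and the salivary glands of the embryo. Factors of the GATA family are known to drive digestive enzyme genes in the fly midgut.

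Few of these genes had an fkh peak near their start. In the optimal list, the 9531 peaks the authors kept after their reproducibility step, 3 of the 41 genes (7.32%) had a summit within 1000 bp of a transcription start site (TSS), against 31.2% of all protein-coding genes. They were the Jonah genes Jon65Ai and Jon25Biii and the lysozyme gene LysB, and no trypsin or maltase gene was among them. LysB alone, or 2.44% of the 41, was also the gene with the nearest TSS to its summit, against 24.1% of all protein-coding genes. The remaining enzyme genes had no optimal summit within that distance.

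The sequence under 4 summits is shown to display what lies at them. All are from the dm6 build (Release 6 of the genome), read 5′ to 3′ on the plus strand. Capitals mark the forkhead word, the core that Fox proteins bind, searched on both strands as TATTTAC or TATTTAT, as TATTTGC or TATTTGT, as TGTTTAC or TGTTTAT, and as TGTTTGC or TGTTTGT. The Jon65Ai, LysB and LysP windows reach 50 bp to either side of the summit and the Jon25Biii window begins at the base next to the start of the neighbouring gene jet. The LysP summit is not in the optimal list and is described further on.
Jon65Ai summit, chr3L:6054983-6055083: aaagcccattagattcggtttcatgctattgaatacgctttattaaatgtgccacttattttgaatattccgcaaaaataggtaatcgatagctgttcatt
Jon25Biii summit, chr2L:4949785-4949857: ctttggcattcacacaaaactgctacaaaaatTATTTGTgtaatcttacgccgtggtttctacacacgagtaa
LysB summit, chr3L:1206816-1206916: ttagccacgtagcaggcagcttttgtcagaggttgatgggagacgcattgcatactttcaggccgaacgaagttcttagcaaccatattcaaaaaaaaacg
LysP summit, chr3L:1218824-1218924: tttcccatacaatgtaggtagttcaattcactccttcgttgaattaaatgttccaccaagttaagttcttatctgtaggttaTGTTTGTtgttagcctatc
The windows at Jon65Ai and LysB hold 0 forkhead words, and the LysP window and the printed Jon25Biii stretch hold 1 each. Within the full 50 bp on both sides, the Jon25Biii summit had 2 forkhead words. A word is a match of letters and not a measured site. The share of all optimal summits with such a word is not given here, so these counts set no summit apart.

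The strongest summit near any of the 41 genes lay upstream of the protease gene Jon65Ai (FBgn0035667, chr3L:6053493-6054443, minus strand) and closer to its neighbour. The interval chr3L:6054743-6055287 had its summit at 6055033 with a signal of 684.2 on the authors' scale, rank 1141 of 9531, in a list whose lowest signal was 160.0, whose median was 294.1 and whose highest was 6080.8. The summit lay in intergenic sequence, 590 bp upstream of the Jon65Ai start and 103 bp from the start of tant (FBgn0028980), a gene for a chromatin-associated protein. Over the 30000 regions of each replicate list, its region ranked 1998 in replicate 1, 706 in replicate 2 and 931 in replicate 3, a mean rank of 1212 ± 690 (SD, n = 3). The region was thus among the strongest in every replicate. A weaker summit of the same interval, in the pooled list but not in the optimal list, lay 98 bp from the tant start with a signal of 138.9.

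The second protease summit lay behind the gene. Jon25Biii (FBgn0031653, chr2L:4949941-4950767, minus strand) had a summit at 4949807, signal 358.3, rank 3601, which was 960 bp downstream of its start and 134 bp beyond its end. The same summit was 23 bp from the start of jet (FBgn0031652), the F-box gene jetlag of the circadian clock. The region ranked 5933, 3357 and 2622 in replicates 1, 2 and 3, with a mean of 3971 ± 1739 (SD, n = 3). A gene just outside the distance limit had the same arrangement: Jon99Fi (FBgn0039778, chr3R:30488963-30489895, plus strand) lay 1040 bp from a summit at 30490003 with a signal of 265.2. That summit was 108 bp past the end of Jon99Fi and 71 bp from the start of PH4alphaSG2, a gene for a prolyl hydroxylase subunit. At each of these protease genes another gene's start was thus much closer to the summit than the protease's own.

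LysB (FBgn0004425, chr3L:1207371-1207981, plus strand) was the exception. Its interval chr3L:1206770-1206957 had a summit at 1206866 with a signal of 234.0, rank 6401, 505 bp upstream of LysB, and no other annotated start was closer. LysB itself sits inside mwh (multiple wing hairs, FBgn0264272, chr3L:1200786-1232700, plus strand), and the summit is in an intron of that gene. The region ranked 12209 in replicate 1, 5448 in replicate 2 and 4173 in replicate 3, with a mean of 7277 ± 4319 (SD, n = 3). Replicate 1 thus placed it well below replicates 2 and 3, beyond the 9531 strongest regions of its list. With optimal peaks kept only where they overlapped one of the 9531 strongest regions in both of the other replicates, leaving out replicate 2 or replicate 3 took the LysB peak away and the count of genes nearest to their summit went to 0.

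The longer lists, which also hold background regions, added few of the 41 genes. In the pooled list of 30000 regions, called on the 3 replicates together, 5 of the 41 genes (12.2%) had a summit within 1000 bp, against 43.4% of all protein-coding genes, and 2 (4.88%) were nearest to it, against 36.3%. The replicate lists gave 8 genes (19.5%) in replicate 1, against 46.1% of all protein-coding genes, 7 (17.1%) in replicate 2, against 47.1%, and 9 (22.0%) in replicate 3, against 52.3%. In each of the 5 lists the share of the 41 enzyme genes together was below that of all protein-coding genes. Over the replicates their 17.1% to 22.0% did not overlap the 46.1% to 52.3% of all genes. This did not hold for each family. A summit was found at 3, 3 and 4 of the 6 lysozyme genes in replicates 1, 2 and 3, which is not below the share of all genes. The counts were 3, 2 and 4 of 16 Jonah genes, 1, 1 and 0 of 11 trypsin genes, and 1 of 8 maltase genes in each replicate. The 5 lists are not separate data. The summits of the optimal list are those of the 9531 strongest pooled regions, and the pooled list was called on the same 3 replicates. A summit in all 3 replicates was found for 5 genes (12.2%), 3 of them lysozyme genes, against 40.1%, and a summit in any of the 5 lists for 11 (26.8%), against 57.9%.

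**Figure D1:**
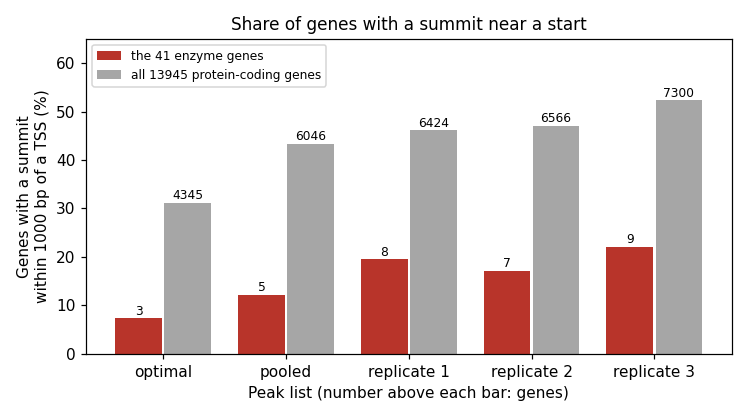
Share of genes (%, from 0) with a summit within 1000 bp of a TSS in each of the 5 peak lists, for the 41 enzyme genes (red, left bar) and all 13945 protein-coding genes (grey, right bar), with the number of genes above each bar. The red bars lie between 7.32% and 22.0% and the grey bars between 31.2% and 52.3%.

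LysP (FBgn0004429, chr3L:1218082-1218696, minus strand), a lysozyme known from the adult salivary gland, was the second gene nearest to its own summit in the pooled list. The interval chr3L:1218644-1219103 had a summit at 1218874, 178 bp upstream of LysP and in an mwh intron, with a signal of 117.8 and a −log10 q of 2.63. It ranked 12452 of 30000 in the pooled list and 15890, 11021 and 11941 in replicates 1, 2 and 3, with a mean of 12951 ± 2587 (SD, n = 3). It was a middle-ranking region in every list, below the 9531 that made the optimal list. The fifth gene of the pooled list was iotaTry (FBgn0015001, chr2R:11356720-11357537, plus strand), the only trypsin gene there. Its summit at 11357609, signal 56.3 and −log10 q 0.90, lay 889 bp downstream of the iotaTry start and 41 bp from the start of the selenocysteine tRNA gene tRNA:SeC-TCA-1-1, inside that gene's exon. That region ranked 17635 in replicate 1 and 28622 in replicate 2, and replicate 3 had none there. Replicate 1 had a further summit 74 bp upstream of iotaTry at rank 21660, which was nearer to the start of CG13202, at 46 bp.

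The 5 genes with a summit in all 3 replicates were Jon65Ai, Jon25Biii, LysB, LysP and LysX. LysX (FBgn0004431, chr3L:1194739-1195302, minus strand), a lysozyme known from metamorphosis, had summits 817, 812 and 788 bp upstream in replicates 1, 2 and 3 at ranks 15173, 19797 and 19527. All 3 summits were nearer to the start of Aplip1, a gene for a scaffold protein of JNK signalling, at 198, 203 and 227 bp. The pooled and optimal lists had no summit within 1000 bp of LysX. Thus LysB and LysP were the members with a summit in all 3 replicates to which no other gene's start was closer.

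The maltase genes had summits in replicate lists only. Mal-A5 (FBgn0050359, chr2R:8462753-8465092, plus strand) had a summit 181 bp upstream in replicate 2, signal 81.0 and rank 6432, and 76 bp upstream in replicate 3, signal 56.4 and rank 6310. Both would be within the 9531 strongest of their lists, yet replicate 1, the pooled list and the optimal list had no region there. Of 7654 regions among the 9531 strongest in replicate 2 that overlapped one among the 9531 strongest in replicate 3, 233 (3.04%) had no pooled region, and 132 of these were absent from replicate 1 as well. Over all pairs of replicates, taken in both directions, the share without a pooled region was 1.17% to 3.06%, and why these regions have none was not tested. Mal-A1 had a summit 73 bp upstream at rank 24609 in replicate 1, and none in replicates 2 and 3. The other members seen in single or paired replicates were Jon65Aiv in replicates 1 and 3, and Jon65Aiii and LysE in replicate 3. Jon65Aiv had its best ranks at 20782 and 14503, Jon65Aiii ranked 25134 and LysE 26616. In these 3 genes the summit lay 178 to 414 bp upstream, and their own start was the nearest.

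**Figure D2:**
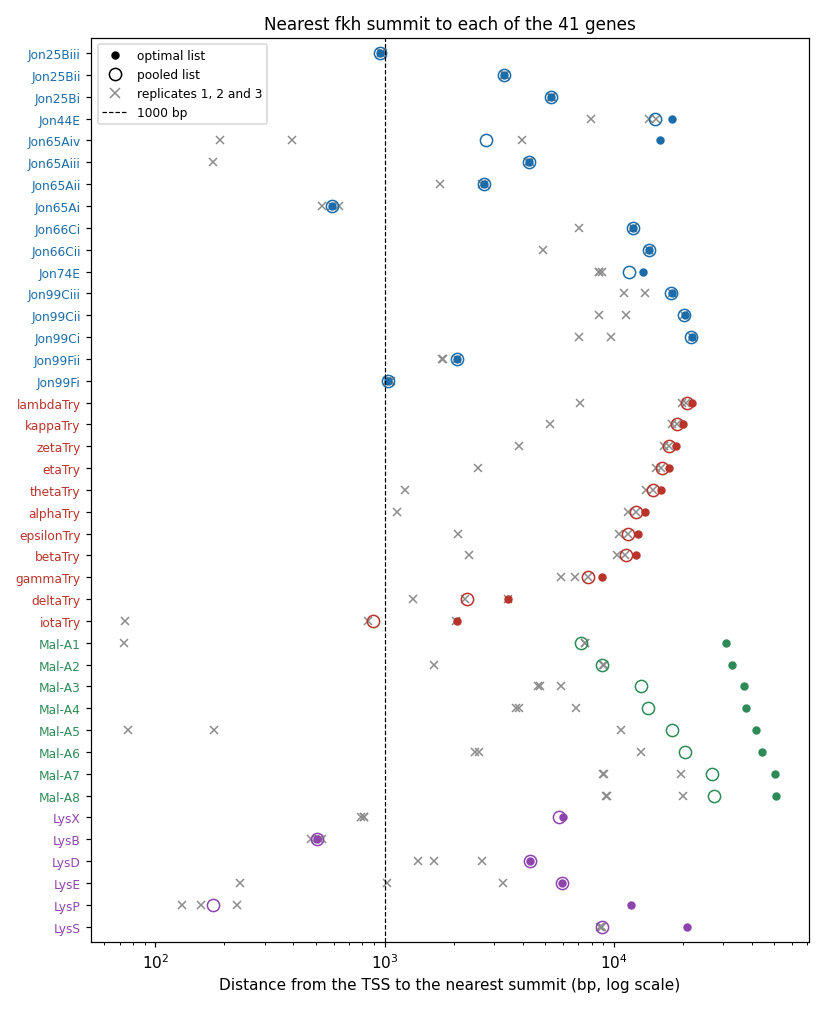
Distance (bp, log scale) from the TSS of each of the 41 enzyme genes to the nearest summit in the optimal list (filled circle), the pooled list (open circle) and replicates 1, 2 and 3 (grey crosses), with the genes in map order within each family and the dashed line at 1000 bp. The filled circles left of the line belong to Jon25Biii, Jon65Ai and LysB, and the 8 maltase genes have theirs farthest right, from 30921 bp on.

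Most of the 41 genes lay in long stretches without optimal peaks. The median distance from their TSS to the nearest optimal summit was 13665 bp (range 505 to 50971), against 4644 bp for all protein-coding genes. It was 8760 bp for the Jonah genes, 13665 bp for the trypsin genes, 39801 bp for the maltase genes and 5971 bp for the lysozyme genes. No optimal summit lay within 10000 bp of 26 of the 41 genes (63.4%), against 34.5% of all protein-coding genes, and these 26 were 8 Jonah, 8 trypsin, 8 maltase and 2 lysozyme genes. With the 9531 strongest regions of each replicate in place of the optimal list, the median distance of the 41 genes was 13522, 9382 and 8646 bp in replicates 1, 2 and 3, against 4414, 3936 and 3370 bp for all protein-coding genes. By this median the 41 genes together were farther from a summit in every replicate. The lysozyme genes went the other way in the full lists of 30000 regions. Their median was 920, 1228 and 652 bp in replicates 1, 2 and 3, against 1621, 1394 and 740 bp for all protein-coding genes. The Jonah, trypsin and maltase medians were larger than those of all genes in each full replicate list.

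The 41 genes fell into 10 loci when neighbours with starts within 20000 bp were joined, and close genes share the same nearest summit, so they are not independent cases. The maltase locus on 2R (Mal-A1 to Mal-A8, chr2R:8449664-8473961) lay in the longest gap of the 10 loci. The flanking optimal summits, at the starts of CSN7, a COP9 signalosome subunit, and Lnpk, the endoplasmic reticulum protein lunapark, were 179 kb apart with 25 coding genes between them. Of 9525 gaps between neighbouring optimal summits, 48 were wider, and the median gap was 3.08 kb. A wide gap is more likely to hold a locus than a narrow one, and the widest gap touching each locus was taken. The gaps at the 10 loci and the median over all gaps are therefore not like measures. The trypsin locus (lambdaTry to iotaTry, chr2R:11336840-11357537) had a gap of 51.6 kb holding 20 coding genes, between a summit 370 bp from Fpps, the farnesyl pyrophosphate synthase gene, and one 392 bp from CG12384. The CG12384 summit was 1247 bp beyond the end of iotaTry, so the trypsin genes sit at 1 edge of their gap.

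The Jonah loci varied more. Their gaps were 79.0 kb at Jon99C (Jon99Ci to Jon99Ciii), 61.9 kb at Jon65A (Jon65Ai to Jon65Aiv), 50.4 kb at Jon44E, 32.5 kb at Jon66C, 31.4 kb at Jon74E, 23.8 kb at Jon99F and 21.8 kb at Jon25B. At Jon65A, Jon99F and Jon25B the gap ended just past an outer protease gene, at the summit near tant, PH4alphaSG2 or jet. Within the 10 loci and 1000 bp on either side, 130 kb in all, there were 4.60 optimal summits per 100 kb, against 7.12 over the genome. The pooled list had 8.44 per 100 kb there, against 22.4, and replicates 1, 2 and 3 had 14.6, 12.3 and 13.8, against 22.4. Over this 130 kb, summits were thus sparser than over the genome in each of the 5 lists. They were not spread evenly over the loci. The lysozyme locus, which spans 33.5 kb, held 3 of the 6 optimal summits and 6 of the 11 pooled ones. It also held 10 of 19, 10 of 16 and 9 of 18 in replicates 1, 2 and 3. Jon25B, Jon65A and Jon99F had 1 optimal summit each and the remaining loci 0. A lower density is therefore not shown for each locus.

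**Figure D3:**
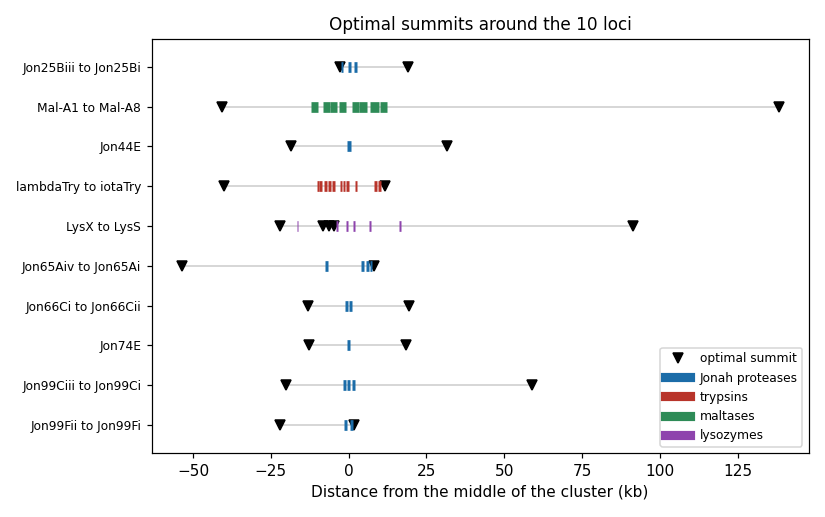
The 10 loci, each centred on its middle (distance in kb), with the enzyme genes as coloured bars by family and the optimal summits flanking or inside the locus as black triangles. The maltase locus has the widest gap, 179 kb, and in the Jon25B, Jon65A, Jon99F and trypsin loci 1 flanking summit lies next to the outermost gene.

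The gaps were not free of signal in the single replicates, and the examples here were chosen after their values were seen. Near Jon99C, a region at the start of Vps13B, 9767 bp from Jon99Ci, ranked 486 in replicate 2 and 669 in replicate 3 without a pooled region. Near Jon74E, a region at the start of CycT, the cyclin T gene, ranked 3727 in replicate 1 and 1945 in replicate 3, and a region within Nedd4 ranked 4253, 5791 and 3315 in replicates 1, 2 and 3. Neither had a pooled region. In each case a gene other than the protease had the nearest start. At the maltase locus the Mal-A5 regions of replicates 2 and 3, ranks 6432 and 6310, lie inside the 179 kb gap. At Jon44E replicate 1 had a region of rank 3643 inside the gap, 7916 bp from the gene. The start nearest to that region was that of a tRNA gene, at 317 bp. Replicates 2 and 3 also shared a region 1796 and 1775 bp from Jon99Fii, with Jon99Fii as the nearest gene, at ranks 7775 and 8785. The gap widths therefore describe the optimal list, and at these loci they do not hold in the replicate lists named.

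The lysozyme locus on 3L differed from the other loci because it held optimal summits inside it. From LysX to LysS (chr3L:1194739-1228238) there were 3, all between LysX and LysB. The first, at 1203303 with a signal of 264.6, was 267 bp from the start of meep, and the next, at 1205171 with 216.8, was 376 bp from the start of CG9119. The third was the LysB summit. meep, CG9119 and the host gene mwh were named after their values were seen. To the right of the LysB summit the next optimal summit was 96.0 kb away, near Acat2, an acetyl-CoA acetyltransferase gene, and LysB, LysD, LysE, LysP and LysS lay in that gap. LysB, LysD, LysE, LysP and LysS all lie inside mwh, and none of the other enzyme genes lies within another protein-coding gene. The summits at LysB and LysP therefore lie before lysozyme starts and in introns of mwh at once, and which of the genes they belong to cannot be told apart in these lists.

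**Figure D4:**
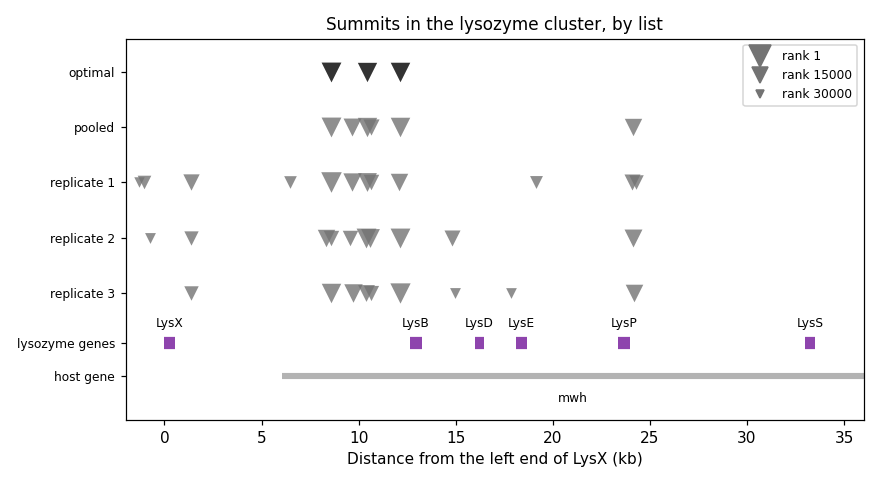
Summits in the lysozyme locus by distance from the left end of LysX (kb), in the optimal, pooled and replicate lists from top to bottom, with larger triangles for better ranks in the list, the 6 lysozyme genes (purple) and the host gene mwh (grey line). The 3 optimal summits lie at 8.56, 10.43 and 12.13 kb, left of LysB, and the LysP summit at 24.14 kb in the pooled list recurs in all 3 replicates.

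Most of the 41 genes shared features that the rule did not use. Their median length was 933 bp, against 2166 bp for all protein-coding genes. Of the 41, 22 (53.7%) had 1 transcript with a single exon, against 12.9%. The 8 maltase genes went the other way, with a median length of 2198 bp and 0 genes counted as single-exon. A single transcript was annotated for 32 (78.0%), against 49.4%, and each of the 41 had 1 TSS. A gene with 1 TSS has a single window in which a summit can count. Among the 7397 protein-coding genes with 1 TSS and no longer than the longest member, Mal-A7 at 3018 bp, 21.0% had an optimal summit within 1000 bp, and the 7.32% of the 41 genes was below that share too. Length was capped there and not matched, so whether it accounts for the lower share was not tested.

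Several members are close copies, in which reads may map to more than 1 place. The coding sequences of gammaTry and deltaTry were 100% identical and their promoters 99.2%, and of the 36-base stretches within 1000 bp of their starts only 6% and 17.6% occur once in the genome. A lack of peaks at gammaTry and deltaTry is thus uncertain. In the other 39 genes at least 50% of these stretches were unique (95.1% of the 41, against 97.8% of all protein-coding genes). The coding sequences of Jon99Cii and Jon99Ciii were 99.6% identical, those of Jon99Fi and Jon99Fii 98.1%, and those of LysB and LysD 96.7%. The promoters of these pairs were 62.1%, 57.4% and 52.2% identical. Promoter identity near 50% was also found in pairs with far less similar coding sequence, such as Jon65Ai and Jon74E (54.1% in coding sequence, 51.2% in promoters). The unique share of 36-base stretches was 61.1% and 63% at Jon99Cii and Jon99Ciii, and 78.4% and 78% at Jon99Fi and Jon99Fii. It was 89.2% and 75.5% at LysB and LysD, and the median of all protein-coding genes was 100%. Over the closest coding copy of each member, gammaTry and deltaTry aside, promoter identity ran from 46.1% to 62.1%.

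GATA words were more frequent in these promoters than in promoters at large, and forkhead words were not. The GATA word, meaning AGATAA or AGATAG, or else TGATAA or TGATAG, on either strand, was present from 250 bases before to 50 after the gene start in 37 of the 41 genes (90.2%), against 46.7% of all protein-coding genes. At least 2 of these words were found in 68.3%, against 16.1%, and the mean was 1.93 words per promoter, against 0.687. Every family had it: 14 of 16 Jonah, 10 of 11 trypsin, 7 of 8 maltase and 6 of 6 lysozyme promoters. The 4 without were Jon25Biii, Jon65Aii, Mal-A1 and etaTry. The forkhead word was present in 24 promoters (58.5%), against 62.9% of all protein-coding genes and 70.4% of those with an optimal summit. Matches of the forkhead and GATA words can overlap, and each word was counted separately. LysP had 5 forkhead words, the most of the 41, and Jon25Biii had 4.

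The GATA words were most frequent in 1 bin of 50 bases. Between 100 and 51 bases before the start, 24 of the 41 genes (58.5%) had one, against 12.5% of all protein-coding genes. The other bins before the start, the one next to it included, had 24.4% to 31.7%, against 8.64% to 12.4%. In the last 50 bases of the window, from the start on, the share was 2.44%, against 6.73%. The forkhead word had no such bin, with 9.76% to 22.0% in the 41 genes and 12.5% to 19.2% in all protein-coding genes. Promoters of protease and lysozyme genes are shown to display where the words fall, as the 150 bases before the gene start on the gene's strand (dm6), with GATA words in capitals.
Jon25Bi, chr2L:4955145-4955294, minus: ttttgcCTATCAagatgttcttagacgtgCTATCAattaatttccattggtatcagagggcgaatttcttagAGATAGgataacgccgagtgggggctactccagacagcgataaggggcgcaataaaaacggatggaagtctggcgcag
Jon65Aiv, chr3L:6039005-6039154, plus: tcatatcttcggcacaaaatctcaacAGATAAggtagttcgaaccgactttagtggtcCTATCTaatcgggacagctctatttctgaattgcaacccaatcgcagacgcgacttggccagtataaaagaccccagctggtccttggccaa
Jon99Cii, chr3R:29924616-29924765, minus: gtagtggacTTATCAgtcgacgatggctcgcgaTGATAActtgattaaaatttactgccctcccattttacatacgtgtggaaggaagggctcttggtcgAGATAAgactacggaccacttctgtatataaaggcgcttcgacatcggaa
LysB, chr3L:1207221-1207370, plus: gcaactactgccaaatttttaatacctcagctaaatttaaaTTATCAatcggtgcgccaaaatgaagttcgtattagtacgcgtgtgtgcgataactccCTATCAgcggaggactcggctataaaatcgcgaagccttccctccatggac
LysD, chr3L:1211197-1211346, minus: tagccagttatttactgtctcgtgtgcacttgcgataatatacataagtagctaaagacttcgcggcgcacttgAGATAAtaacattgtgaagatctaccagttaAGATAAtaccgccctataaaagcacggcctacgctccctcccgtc
Jon65Aii, chr3L:6052171-6052320, plus: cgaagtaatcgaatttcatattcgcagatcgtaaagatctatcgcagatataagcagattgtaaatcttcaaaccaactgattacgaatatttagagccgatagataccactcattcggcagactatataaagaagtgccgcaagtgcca
Jon25Bi and Jon99Cii have 3 GATA words in this stretch, Jon65Aiv, LysB and LysD have 2, and Jon65Aii, shown for contrast, has 0. The words of Jon99Cii lie on either side of the bin from 100 to 51 bases before the start, the nearest beginning 50 bases before it. LysB and LysD are the pair with 96.7% identical coding sequence and 52.2% identical promoters, and each has 2 words in this stretch.

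**Figure D5:**
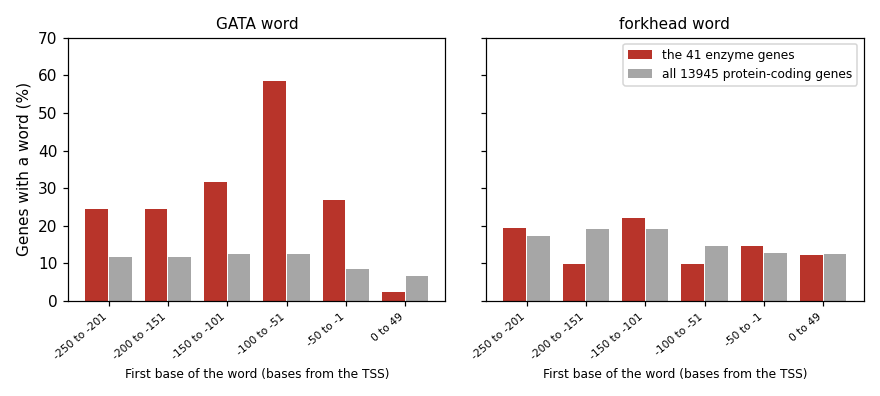
Share of genes (%, from 0) with a GATA word (left panel) or a forkhead word (right panel) by the position of the word's first base relative to the TSS in bins of 50 bases, for the 41 enzyme genes (red, left bar) and all 13945 protein-coding genes (grey, right bar). The GATA word reaches 58.5% of the enzyme genes 100 to 51 bases before the start, against 12.5% of all protein-coding genes, and no such bin appears for the forkhead word.

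Other digestive genes were read for comparison from a list of 32, of which 29 matched the annotation, with amylases, lysosomal mannosidases, peptidoglycan recognition proteins and peritrophic matrix proteins among them. An optimal summit within 1000 bp was found at 2 of the 29, against 31.2% of all protein-coding genes. PGRP-LB (FBgn0037906), an enzyme that breaks down bacterial peptidoglycan, had a summit 363 bp from its start with a signal of 740.7, rank 938, and Npc2e (FBgn0051410), of a sterol-binding family, had one at 224 bp with 167.1, rank 9168. Both were the nearest genes to their summits, and both had a summit in all 3 replicates. In the pooled list 3 of the 29 genes had a summit within 1000 bp. The gene added there, without an optimal summit in that distance, also had a summit in all 3 replicates. The summits counted for Jon65Ai (684.2), Jon25Biii (358.3) and LysB (234.0) had lower signals than that of PGRP-LB. The median distance to the nearest optimal summit was 10450 bp in the 29 genes, against 4644 bp in all protein-coding genes. A GATA word in the promoter was found in 24 of the 29 (82.8%), against 46.7%. At least 2 such words were found in 31.0% of the 29, against 68.3% of the 41 enzyme genes and 16.1% of all protein-coding genes.

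Whole prepupae were used, so binding in a small number of gut cells and no binding cannot be told apart, and no peak can be placed in the gut. A summit within 1000 bp of a start does not show which gene it acts on.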

How the data were processed

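Peak lists on the dm6 build were used, not reads, coverage or the dm3 lists. The file lists deposited with the samples say that regions were called per replicate against 1 control shared by the 3 replicates and again on the replicates together (pooled list), and an optimal list was made by a reproducibility (IDR) step. Each list but the optimal one holds 30000 regions, background included. For the aligner and peak caller, nothing is given in the sources used here. Every deposited region carries the authors' signal, on a scale not stated, and a −log10 of its q-value. Since signals from separate calls have no shared scale, ranks were compared between replicates. The label's age in days was not used.

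Genes came from Ensembl release 115 and sequence from Release 6 (dm6). A summit counted for every gene with a TSS within 1000 bp, and the gene with the nearest TSS of any annotated gene type was also recorded. Replicate ranks of a peak are the best rank among the regions it overlapped. Promoter words were searched from 250 bases before to 50 after the gene start. Repeats were measured as the share of 36-base stretches within 1000 bp of a TSS that occur once in the genome. With 1 group, shares of the 41 genes were set beside those of all protein-coding genes on the same chromosomes, without a test. The members and lists were chosen with earlier results of these data known. Every member could be named, as could genes nearest to a summit at a member or to the optimal summit flanking a locus, and listed digestive genes with an optimal summit. Counting and word search were tested on simulated data. Alternatives covered the window, the TSS used, peak strength, interval overlap, unique sequence, gene types, the words and each replicate left out. Python 3.11.15, numpy 2.4.6, Biopython 1.88 and matplotlib 3.10.9 were used.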

Additional observations from a re-analysis of the deposited data

How the results depend on the processing

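Of 41 alternative values, 29 stayed within 1.5 times the reported count, or within 2629 bp of the reported median distance (the SD of the medians of the 3 replicates), and 12 moved further, and in all 27 alternatives for counts of genes with a summit the share of the 41 enzyme genes was below that of all protein-coding genes. Within 500 bp, 0 enzyme genes had an optimal summit, against 26.8% of all protein-coding genes, 1 had a pooled summit, against 38.4%, and 1 had a summit in all 3 replicates, against 34.3%. Within 5000 bp the optimal count was 11 (26.8%, against 51.4%) and the pooled count 13 (31.7%, against 61.3%). With the strongest regions of each replicate alone, 2 genes (4.88%) had a summit in all 3 replicates, against 26.1% of all protein-coding genes. With only the stronger optimal peaks, those above the list's median signal, the median distance was 21944 bp, against 8347 bp for all protein-coding genes. For each replicate left out, the optimal list was filtered by the other replicates and not made anew, which left 7379 to 7671 peaks. Such a filter can only lower counts and lengthen distances, so it does not show what a list made without that replicate would hold. The filtered lists gave 2 to 3 genes with an optimal summit, against 26.5% to 26.8% of all protein-coding genes. They gave 0 to 1 nearest to it (0 without replicate 2 or replicate 3), against 20.2% to 20.4%. Their median distance was 14291 bp, against 5807 to 5855 bp. In the replicate lists, leaving out each replicate gave 6 genes with a summit in both remaining replicates, against 41.5% to 43.3%. Settings for the promoter words were chosen after seeing the data. The share with a GATA word was 97.6%, against 66.8%, from 500 bases before the start and 68.3%, against 19.0%, within 100 bases before it, and that with a forkhead word from 500 bases before was 85.4%, against 82.8%. With TGATAA alone, 22 enzyme promoters (53.7%) held the GATA word, against 22.7%. The forkhead word was in 9 (22.0%, against 24.3%) within 100 bases before the start, and in 7 (17.1%, against 21.2%) as TGTTTAC or TGTTTAT alone. The cause of these shifts was not tested. No paired analysis was possible because there is 1 group. Depth is not given, so a summit below a list's end cannot be told from none.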
